A study of Mus musculus with 32 samples.

Results

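The genes described here are 42 mouse genes of meiosis and of the piRNA pathway, a set of germline genes of which many are kept silent in somatic cells by methylation of their promoters. Their list names symbols by role and uses no measured value, although it was drawn up with earlier results of these data known, and all 42 were found among the 31053 genes of the count tables. By role they fall into 6 genes of the synaptonemal complex, 5 of the meiotic chromosome axis, 10 of meiotic recombination, 13 of the piRNA pathway and 8 regulators and markers of germ cells. Of the 42, 38 had enough reads to be tested (a CPM of 1 or more in 4 or more of the 32 libraries, CPM being reads scaled by library depth), and 4 did not.

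Expression was measured by QuantSeq, which sequences the 3′ end of each polyadenylated transcript, in 8 groups of 4 cultures of the mouse embryonic stem cell (ESC) line C1. All groups share 1 genotype: both alleles of β-catenin are deleted, and lentiviral constructs give an rtTA activator under the EF1a promoter and, under the TRE3G promoter, a fusion of a destabilizing domain (DD), mCherry and β-catenin S33Y, a stable form of the protein. Doxycycline (dox) starts transcription of this fusion and trimethoprim (TMP) keeps the protein from being degraded. All groups began from 2i/LIF medium with 48 h of treatment. C1 cells had 10 μM TMP without dox and were sorted as living cells at day 0. C1M and C1H cells had 100 ng/mL dox with 10 μM TMP and were sorted at day 0 from the middle and the high part of the mCherry distribution. At day 4 of differentiation in NDiff227 medium, C1T were C1 cells kept in 10 μM TMP. C1MV and C1HV were C1M and C1H cells with both inducers withdrawn and DMSO given instead. C1MDT and C1HDT were C1M and C1H cells kept in dox and TMP. Over these 4 days C1MV and C1HV also differed from C1T in TMP and DMSO, and C1MDT and C1HDT also in dox. At day 4 these differences cannot be told apart from an effect of the fusion. Since C1M and C1H differ from C1 in dox and in the mCherry gate as well as in the fusion protein, these 3 cannot be told apart in these groups. The line is a single one, made by lentiviral infection and drug selection.

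In meiosis homologous chromosomes are organised along an axis of cohesin and HORMA-domain proteins, are broken and repaired by the recombination machinery, and are held together by the synaptonemal complex. The piRNA pathway runs in parallel in germ cells, where PIWI proteins loaded with small RNAs silence transposons with the help of Tudor-domain proteins and RNA helicases. Many promoters of both programs are rich in CpG, and in ESCs and somatic cells they are held silent by DNA methylation and by a Polycomb complex (PRC1.6) that binds DNA through MGA with MAX, at E-boxes, and through E2F6. Naive ESCs in 2i/LIF have little DNA methylation, which is gained as they leave pluripotency.

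To show the promoters behind the results, RefSeq windows of GRCm38.p6 from 250 bases before to 50 after the annotated start were matched to the genes, and 37 of 42 had one. The E-box CACGTG, which reads the same on both strands, was in 13 of these 37 windows (35.1%) and in 7.24% of the windows of all 27025 genes. Among the tested genes with a window it was in 11 of 24 that rose in C1H vs C1 at day 0 (45.8%) and in 1 of 11 that did not (9.09%). The 7 rising genes below have it within the 120 bases that lie upstream of the start in both RefSeq and GENCODE. They are written 5′ to 3′ along the gene's strand with the E-box in capitals, and Hormad1 and Sycp3 have it at 2 positions.
Brdt chr5:107331039-107331158, plus strand: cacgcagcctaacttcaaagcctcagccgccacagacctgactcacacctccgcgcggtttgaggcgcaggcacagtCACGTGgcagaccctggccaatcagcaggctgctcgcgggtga
Hormad1 chr3:95559557-95559676, plus strand: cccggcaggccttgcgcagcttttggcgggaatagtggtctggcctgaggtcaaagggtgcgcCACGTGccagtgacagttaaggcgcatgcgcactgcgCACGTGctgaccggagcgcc
Stk31 chr6:49395419-49395538, plus strand: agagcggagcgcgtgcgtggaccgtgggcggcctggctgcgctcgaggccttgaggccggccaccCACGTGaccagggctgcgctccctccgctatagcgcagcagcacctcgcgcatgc
Sycp1 chr3:102936101-102936220, minus strand: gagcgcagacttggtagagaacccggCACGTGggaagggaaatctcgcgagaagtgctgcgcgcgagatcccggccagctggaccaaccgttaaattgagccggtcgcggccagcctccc
Sycp3 chr10:88459449-88459568, plus strand: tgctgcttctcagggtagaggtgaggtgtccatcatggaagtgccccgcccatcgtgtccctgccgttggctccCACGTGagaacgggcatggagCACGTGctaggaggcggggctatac
Tdrd1 chr19:56826089-56826208, plus strand: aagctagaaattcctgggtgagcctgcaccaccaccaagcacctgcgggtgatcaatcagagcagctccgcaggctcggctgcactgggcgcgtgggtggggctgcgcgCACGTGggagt
Tdrd9 chr12:111971439-111971558, plus strand: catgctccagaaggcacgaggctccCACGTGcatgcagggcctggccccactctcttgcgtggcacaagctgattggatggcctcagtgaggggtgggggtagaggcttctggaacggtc

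The genes that rose were not alike in CpG content. Over the 300-base windows the ratio of observed to expected CpG ran from 0 in Spz1 to 1.11 in Tdrd5 among the 24 that rose in C1H, with Dazl at 0.7955. Dazl and Spz1 are shown as 2 examples in the 200 bases before the start, with CpG in capitals, of which Dazl has 17 and Spz1 has 0.
Dazl chr17:50293637-50293836, minus strand: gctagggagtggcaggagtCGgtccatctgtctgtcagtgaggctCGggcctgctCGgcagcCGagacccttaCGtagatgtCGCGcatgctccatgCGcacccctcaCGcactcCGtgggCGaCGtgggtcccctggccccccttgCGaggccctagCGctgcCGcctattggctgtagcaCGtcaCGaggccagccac
Spz1 chr13:92576233-92576432, minus strand: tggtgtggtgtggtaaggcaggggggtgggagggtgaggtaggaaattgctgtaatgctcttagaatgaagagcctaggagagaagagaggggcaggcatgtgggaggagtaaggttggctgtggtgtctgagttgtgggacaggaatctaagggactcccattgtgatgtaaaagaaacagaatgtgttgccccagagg

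The ratio had a median of 0.686 in the 37 genes and 0.389 in all genes. A ratio of 0.6 or more was found in 23 of 37 (62.2%), against 36.5% of all genes, and in 15 of the 24 that rose in C1H (62.5%) against 7 of the 11 that did not (63.6%). In windows of this CpG-rich class the E-box was in 11 of 23 of the germline genes (47.8%), in 10 of the 15 that rose (66.7%) and in 11.4% of all genes. The element TCCCGC, searched on both strands as the core of the E2F6 site, was in 15 of 37 windows (40.5%), against 20.1% of all genes. Among CpG-rich windows it was in 14 of 23 of the germline genes (60.9%), in 8 of the 15 that rose (53.3%) and in 43% of all genes. It was in 9 of the 24 that rose in C1H (37.5%) and in 5 of the 11 that did not (45.5%). CTTTGAT, the only form of the TCF/LEF element that was searched, on both strands, was in 0 of 37 windows and in 3.76% of all. Among CpG-rich windows it was in 2.14% of all genes. At shares this low, 0 of 37 does not show that such elements are lacking. These counts describe letters in the windows and show no binding.

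The libraries held between 1366951 and 3648787 reads on genes, so that 3 counts, taken as the floor, stood for 0.822 to 2.19 CPM. Levels are CPM scaled by edgeR's TMM factors, changes are log2 fold changes (log2 FC) ± SE from edgeR's quasi-likelihood test over 15280 genes, and FDR is the Benjamini-Hochberg adjusted p-value over all of them, called where under 0.05. Where every library of a group had at most 3 counts, the group is called at the floor and a fold against it is a lower bound. P-values rest on the spread between cultures within groups, pooled over all 8 groups. They do not measure agreement between independent experiments. The study describes the 4 samples averaged in each column of its heatmaps as coming from the same experiment. In RNA from whole cultures fewer cells of a type and less RNA per cell cannot be told apart. Reads of the β-catenin gene, Ctnnb1, the driven gene, were at 8.81, 6.23, 5.19 and 11 CPM in C1, at 9.76, 12.1, 9.45 and 17.7 in C1M and at 40.5, 40.4, 48.7 and 34.9 in C1H. C1H lay above both other groups (log2 FC 2.37 ± 0.21, FDR = 6.48e-20 against C1), while C1M overlapped C1 (log2 FC 0.61 ± 0.25, FDR = 0.0553). At day 4 the kept inducers gave 25.4 to 36.3 CPM, against 7.18 to 12.4 in C1T and 4.13 to 12.1 after withdrawal. A 3′ tag can lie outside the deleted coding sequence, so the reads in C1 do not check the deletion.

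At day 0 most of the germline genes were higher in the cells with the fusion. In C1H vs C1, 27 of the 38 rose and 0 fell, against a background of 13.8% of all genes tested that rose and 12.1% that fell. In C1M vs C1, 26 rose and 1 fell, against 14.3% of all genes higher and 12.0% lower. The median log2 fold change over the 38 was 1.73 in C1H and 1.42 in C1M, or 1.41 and 1.10 with genes at the floor set to their bounds, beside 0.04 and 0.06 over all genes tested. Summed over the 42 genes, the libraries ran from 411 to 449.9 CPM in C1, from 899 to 921 in C1M and from 967 to 1010.3 in C1H, without overlap between C1 and the others. C1 was also the group with the lowest mean for 20 of the 38 genes, and 13 of the 42 were at the floor there.

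**Figure D1:**
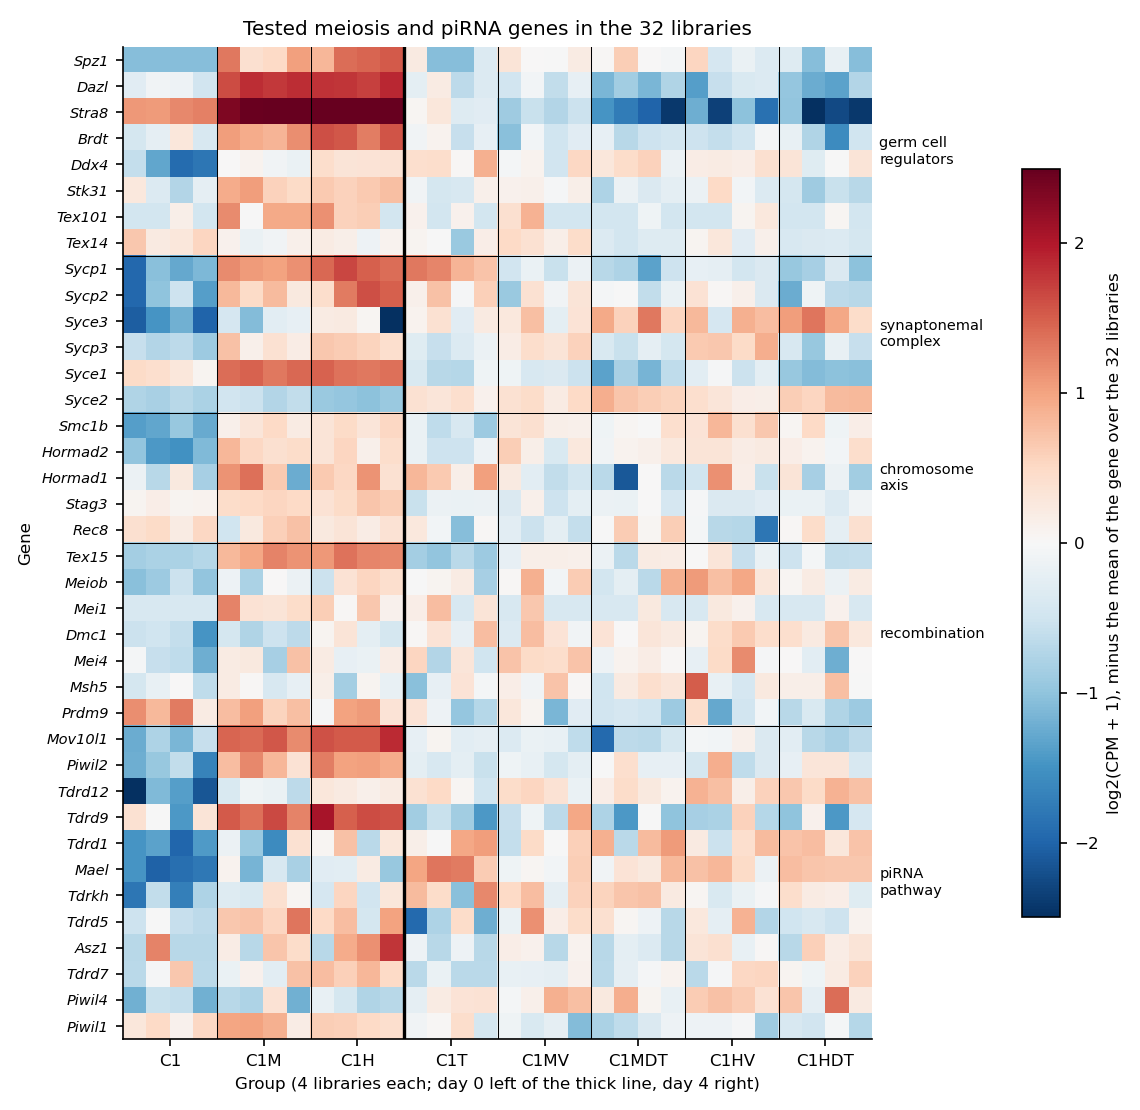
Levels of the 38 tested germline genes in each of the 32 libraries, as log2(CPM + 1) minus the mean of the gene over all libraries, with genes in rows by role and libraries in columns by group; the colour scale is limited to 2.5 in either direction. Rows are mostly low in the 4 C1 columns and high in the C1M and C1H columns, and the day 4 columns are mixed.

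Among the genes of the synaptonemal complex, 5 of 6 rose in C1M and in C1H. Sycp1 (ENSMUSG00000027855), the transverse filament that bridges the paired axes, was at 2.52, 5.66, 4.67 and 5.27 CPM in C1, at 30.1, 27.7, 26.4 and 29.3 in C1M and at 36.1, 42.9, 37.7 and 35.3 in C1H. No 2 of these groups overlapped, and the rise over C1 was log2 FC 2.66 ± 0.24, FDR = 8.91e-19 in C1M and log2 FC 3.09 ± 0.23, FDR = 1.02e-24 in C1H. Sycp2, an axial element protein, had 1.26, 3.4, 5.19 and 2.4 CPM in C1, 14.4, 11.4, 14.3 and 9.49 in C1M and 10.9, 20.6, 26 and 24 in C1H. Again every induced library was above every C1 library (log2 FC 2.05 ± 0.34, FDR = 2.96e-07 and log2 FC 2.75 ± 0.31, FDR = 4.67e-13), with C1M and C1H overlapping. Sycp3, the partner of Sycp2, was at 26.9, 23.8, 25.4 and 21.1 CPM in C1, 67.5, 44, 52.5 and 46.2 in C1M and 64.7, 63.1, 60.1 and 54.2 in C1H. Both induced groups were above C1 (log2 FC 1.10 ± 0.15, FDR = 2.58e-10 and log2 FC 1.32 ± 0.14, FDR = 3.68e-14), and the gene Chpt1 overlaps its 3′ end on the other strand, so that without a stated strand setting its reads are uncertain.

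The central element genes differed among themselves. Syce1 was at 73.4, 70.2, 63.8 and 55.1 CPM in C1, 140.1, 147, 132 and 144 in C1M and 149, 136, 132 and 139 in C1H. Both induced groups lay above C1 and close to each other (log2 FC 1.10 ± 0.11, FDR = 1.3e-16 in C1M and log2 FC 1.08 ± 0.11, FDR = 2.51e-16 in C1H). Syce2 was the 1 gene of the complex that did not rise, with 49.9, 47.6, 51.9 and 48.4 CPM in C1 and 44.3, 42.9, 41 and 44.1 in C1H (log2 FC -0.20 ± 0.12, FDR = 0.216), and the gene Gcdh overlaps its 3′ end. Syce3 was at the floor in C1, with 0.42, 1.13, 1.56 and 0.479 CPM, and at 3.4, 1.77, 3.91 and 4.13 in C1M and 5.79, 5.93, 5.13 and 0 in C1H. It was at least 2.22-fold higher in C1M (FDR = 0.012, and 0.0673 without C1 replicate 1) and at least 2.83-fold higher in C1H (FDR = 0.000915), although 1 C1H library had 0 reads.

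Of the 5 axis genes, 4 rose in each induced group. Smc1b, a meiotic cohesin subunit, had 17.6, 18.7, 23.9 and 19.18 CPM in C1, 51.8, 58.2, 67.2 and 54.9 in C1M and 59.6, 66.2, 58.6 and 67.7 in C1H. All 8 induced libraries stood above the 4 of C1 (log2 FC 1.56 ± 0.15, FDR = 6.6e-17 and log2 FC 1.67 ± 0.15, FDR = 3.72e-19). The HORMA-domain gene Hormad2 rose by log2 FC 2.04 ± 0.29, FDR = 4.38e-09 in C1M and log2 FC 1.83 ± 0.30, FDR = 2.12e-07 in C1H, from 2.6 to 4.2 CPM in C1 to 10.3 to 17.4. Hormad1 had 2.94, 1.7, 4.15 and 1.44 CPM in C1 and 5.79, 5.23, 8.43 and 4.62 in C1H, and its rise (log2 FC 1.31 ± 0.47, FDR = 0.0308 in C1M and log2 FC 1.22 ± 0.47, FDR = 0.0488 in C1H) did not hold when single libraries were left out (FDR up to 0.181 without C1M replicate 2 and 0.163 without C1H replicate 3). Stag3, another cohesin subunit, rose little (log2 FC 0.40 ± 0.11, FDR = 0.00256 and log2 FC 0.45 ± 0.11, FDR = 0.000691), and Rec8, the meiotic kleisin, was at 9.67 ± 0.984 CPM in C1 and 8.72 ± 0.54 in C1H (SD, n = 4) and was not called.

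Of the 7 recombination genes tested, 2 rose in C1M and 4 in C1H. Tex15, required for repair of meiotic breaks and for transposon silencing, was at 13, 13.6, 13.5 and 14.4 CPM in C1, 43.3, 48.6, 58.7 and 54.1 in C1M and 52.1, 63.8, 57.9 and 57.2 in C1H. The groups did not overlap with C1, and the change was log2 FC 1.91 ± 0.17, FDR = 9.1e-19 in C1M and log2 FC 2.08 ± 0.17, FDR = 9.07e-22 in C1H. Dmc1, the meiotic recombinase, reached log2 FC 0.81 ± 0.31, FDR = 0.0422 in C1H, a call that was lost without any 1 of 6 libraries (FDR up to 0.199 without C1 replicate 4). Meiob, which binds single-stranded DNA at breaks, was at least 1.69-fold higher in C1H (FDR = 0.0233, up to 0.0785 without C1 replicate 1). Mei1, needed to form breaks, passed the threshold in both groups, but its libraries were at the floor in C1 and C1H and its highest count was 5, so no fold is given, and the calls were lost with 1 library left out (FDR up to 0.0637 without C1M replicate 1 and 0.105 without C1 replicate 1). Prdm9, the methyltransferase that places the breaks, had 3.36 to 8.31 CPM in C1 and 2.73 to 6.96 in C1H and was not called, as were Mei4 and the mismatch repair gene Msh5.

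In the piRNA pathway 8 of 12 tested genes rose in C1M and 8 in C1H. Mov10l1, the RNA helicase that feeds precursors into piRNA biogenesis, was at 6.3, 9.06, 6.75 and 10.5 CPM in C1, 45.8, 44.7, 49.2 and 38 in C1M and 50.4, 48.8, 48.7 and 61.8 in C1H. The induced groups lay above C1 without overlap, with the largest change of the pathway among genes that were not at the floor, log2 FC 2.45 ± 0.20, FDR = 4.38e-22 in C1M and log2 FC 2.68 ± 0.19, FDR = 8.53e-26 in C1H. Piwil2 (MILI), a PIWI protein of fetal and adult germ cells, had 1.68, 2.26, 3.11 and 0.959 CPM in C1, 9.76, 13.5, 10.1 and 7.02 in C1M and 14.3, 11.5, 11.7 and 10.9 in C1H. No induced library was as low as any of C1 (log2 FC 2.34 ± 0.38, FDR = 1.69e-07 and log2 FC 2.60 ± 0.37, FDR = 2.63e-09), while the other 2 PIWI genes, Piwil1 and Piwil4, were not called at day 0.

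Mael, which acts in transposon silencing in the nucleus and in the germ cell granule, was at 3.78, 2.26, 2.6 and 2.88 CPM in C1, 13.2, 4.97, 9.13 and 6.6 in C1M and 9.88, 10.1, 14.3 and 5.89 in C1H. C1 was below both groups, with log2 FC 1.50 ± 0.35, FDR = 0.000321 in C1M and log2 FC 1.77 ± 0.33, FDR = 7.39e-06 in C1H. Of the 6 Tudor-domain genes tested, 5 were called higher in both groups. Tdrd12 went from 0.839, 3.96, 3.11 and 1.44 CPM in C1 to 7.22, 8.87, 8.48 and 5.78 in C1M and 11.9, 11.5, 10.6 and 11.4 in C1H (log2 FC 1.77 ± 0.36, FDR = 4.58e-05 and log2 FC 2.33 ± 0.34, FDR = 5.95e-09). The helicase Tdrd9 had 2.52, 1.7, 0 and 2.4 CPM in C1, 6.79, 6.03, 7.5 and 5.37 in C1M and 10.2, 6.62, 7.33 and 7.15 in C1H (log2 FC 1.89 ± 0.49, FDR = 0.00145 and log2 FC 2.17 ± 0.48, FDR = 0.000133). Tdrd1, which binds Piwil2, was at the floor in C1, with 0.42, 0.566, 0 and 0.479 CPM, and at 3.07, 5.58, 1.47 and 3.78 in C1H. It was at least 1.35-fold higher in C1M (FDR = 0.0292, up to 0.202 without C1M replicate 4) and at least 2.33-fold higher in C1H (FDR = 0.000346). Tdrkh (log2 FC 1.63 ± 0.52, FDR = 0.0115, up to 0.0843 without C1 replicate 1) and Tdrd5 (log2 FC 1.64 ± 0.47, FDR = 0.00444) rose in C1M. In C1H they had log2 FC 1.71 ± 0.51, FDR = 0.00718 (up to 0.0602 without C1 replicate 1) and log2 FC 1.30 ± 0.49, FDR = 0.0364 (up to 0.132 without C1H replicate 4), and the gene Oaz3 overlaps the 3′ end of Tdrkh on the other strand, which leaves its reads uncertain. Tdrd7 and the mitochondrial scaffold Asz1 were low and not called.

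Among the 8 germ cell regulators, 7 rose and 1 fell in C1M, and 6 rose in C1H. Dazl (ENSMUSG00000010592), an RNA-binding protein that licenses germ cell development, was at 17.6, 20.4, 19.7 and 15.3 CPM in C1, 69.6, 80.9, 76 and 80.1 in C1M and 78, 77.1, 72.9 and 82.8 in C1H. The induced groups overlapped each other and lay far above C1 (log2 FC 2.07 ± 0.15, FDR = 9.43e-25 and log2 FC 2.09 ± 0.15, FDR = 2.64e-25). Stra8, induced by retinoic acid at the entry into meiosis, had 21.8, 21.5, 23.9 and 24.9 CPM in C1, 53.1, 58.5, 65.5 and 72.2 in C1M and 71.9, 76, 73.3 and 82.4 in C1H. It too was above C1 in every induced library (log2 FC 1.43 ± 0.16, FDR = 1.43e-13 and log2 FC 1.72 ± 0.16, FDR = 1.9e-18). Brdt, the testis bromodomain protein, was at 12.2, 14.2, 20.8 and 12.5 CPM in C1, 35.7, 33, 31.3 and 38.8 in C1M and 53.2, 51.3, 42.1 and 52.1 in C1H. For this gene the 3 groups were apart from each other, with log2 FC 1.22 ± 0.19, FDR = 3.63e-08 in C1M and log2 FC 1.75 ± 0.18, FDR = 1.88e-15 in C1H. Ddx4, the Vasa helicase of germ cell granules, went from 7.97, 4.53, 2.6 and 2.88 CPM in C1 to 12.7, 13.5, 11.7 and 11.1 in C1M and 17.4, 16, 16.1 and 16.4 in C1H. Every induced library exceeded those of C1 (log2 FC 1.40 ± 0.28, FDR = 3.68e-05 and log2 FC 1.82 ± 0.27, FDR = 1.26e-08).

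**Figure D2:**
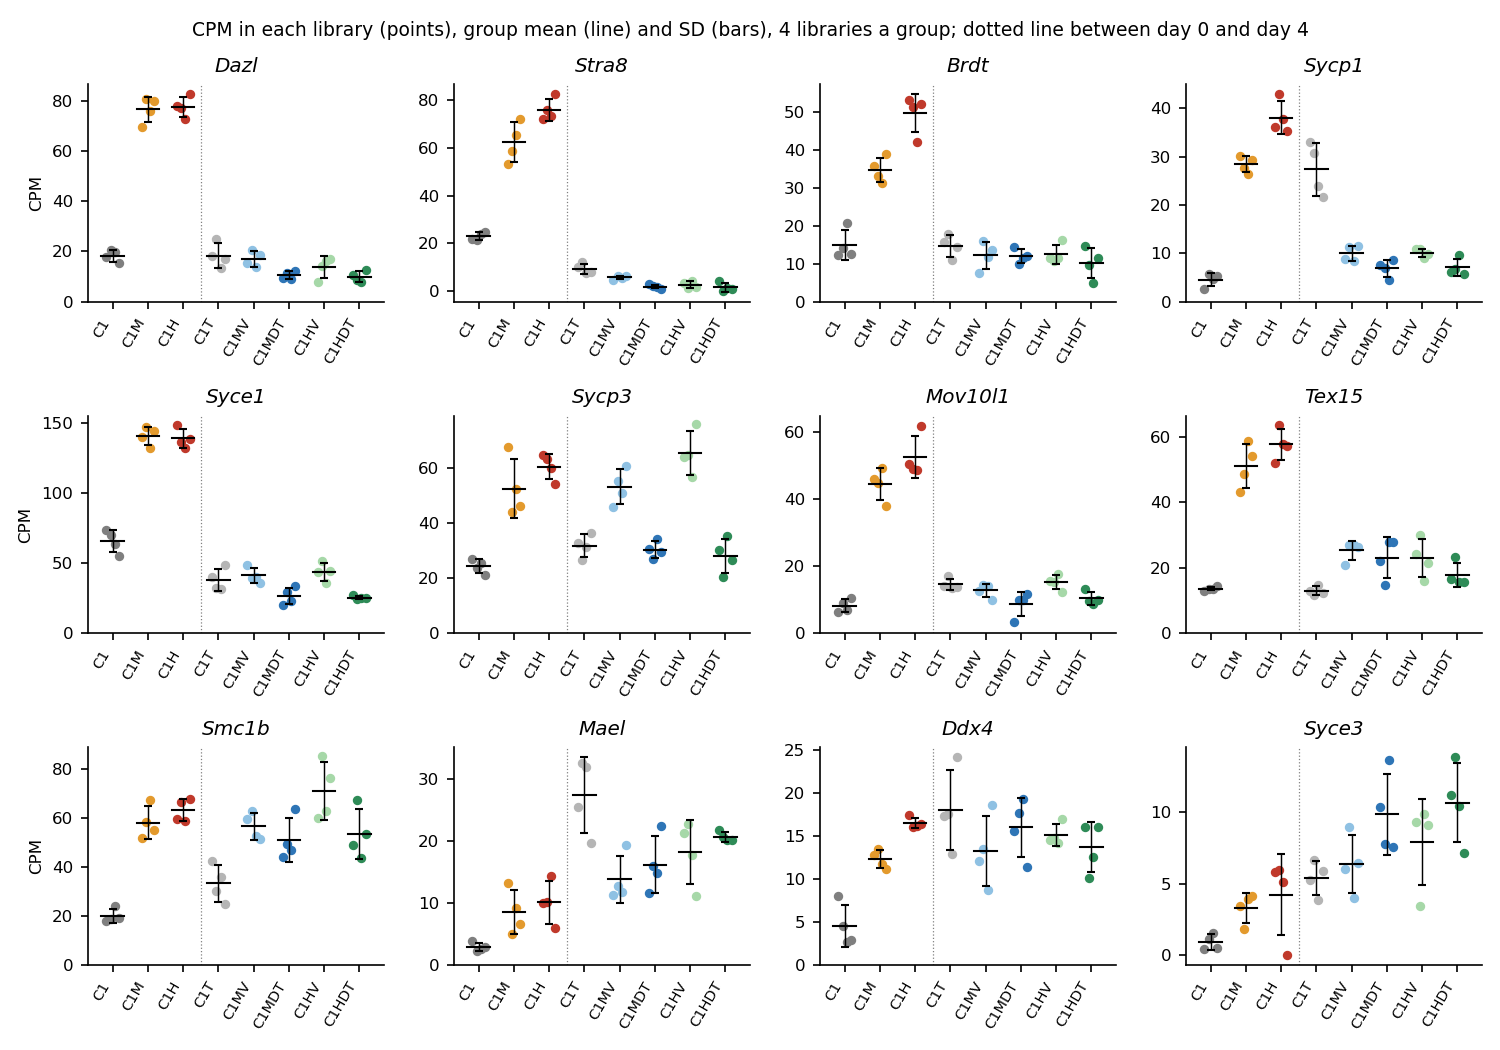
CPM of 12 germline genes in the 8 groups, 1 panel per gene with its own axis from 0; points are libraries, lines the mean of 4 and bars the SD. Dazl, Stra8, Brdt, Mov10l1 and Tex15 are highest in C1M and C1H, Mael is highest in C1T, and Syce3 is highest in C1HDT.

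Spz1, a transcription factor of spermatogenesis, had 0 reads in all 4 C1 libraries and 4.25, 1.77, 1.96 and 3.3 CPM in C1M and 2.73, 4.53, 4.76 and 5.05 in C1H, at least 1.89-fold higher in C1M (FDR = 3.37e-05). Stk31, a Tudor-domain kinase-like protein of germ cells, rose by log2 FC 0.99 ± 0.16, FDR = 1.08e-07 in C1M and log2 FC 0.87 ± 0.16, FDR = 3.31e-06 in C1H. Tex14, which keeps germ cells joined by bridges, went the other way, from 46.6, 34, 35.3 and 42.2 CPM in C1 to 31.4, 25.5, 27.1 and 31.8 in C1M (log2 FC -0.47 ± 0.15, FDR = 0.0138, and 0.0749 without C1 replicate 1), with log2 FC -0.38 ± 0.15, FDR = 0.0513 in C1H. Tex101, a surface protein of germ cells, was at or near the floor at day 0, and no fold is given. Its call in C1M was lost without C1 replicate 1 (FDR 0.103), and 6 of its 7 libraries with a CPM of 1 or more were of C1M and C1H.

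Set against the promoter windows shown above, rises were found at high and at low CpG ratios. Syce3 and Sycp2 have ratios of 0.218 and 0.363, Sycp1 and Smc1b have 0.874 and 1.08, and all 4 rose in C1H. Piwil1, the tested gene with E-boxes that did not rise, has 2 of them and a change of log2 FC 0.19 ± 0.29, FDR = 0.673.

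**Figure D3:**
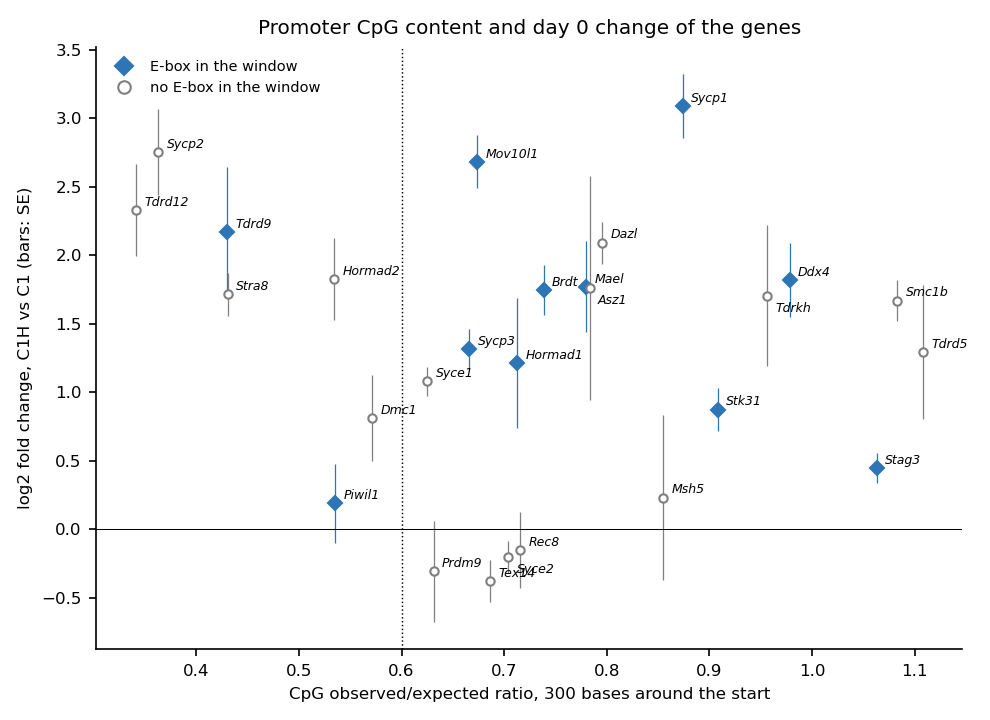
Log2 fold change in C1H vs C1 (bars of 1 SE) against the ratio of observed to expected CpG in the 300 bases around the start, for the 27 tested genes with a window and no group at the floor; filled points have an E-box, and the dotted line marks a ratio of 0.6. Of the 11 genes with an E-box, 8 changed by more than 1 on the log2 scale and Piwil1 was lowest at 0.19. Many genes without an E-box also changed by more than 1, among them Dazl, Hormad2, Smc1b, Stra8, Syce1, Sycp2, Tdrd12, Tdrd5 and Tdrkh. Others without it, such as Syce2 and Tex14, did not.

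Between the high and the middle fraction only Brdt was called, against a background of 0.713% of all genes tested that were higher in C1H and 1.06% that were lower. The difference was log2 FC 0.52 ± 0.15, FDR = 0.0435, and it was lost when any 1 of 7 of the 8 libraries of C1M and C1H was left out, the exception being C1H replicate 3 (FDR up to 0.163 without C1H replicate 1). At an unadjusted p under 0.05 there were 8 genes, and DESeq2 called 1, which was not Brdt. The median log2 fold change over the 38 was 0.14, with a median SE of 0.26, while Ctnnb1 differed between the fractions by log2 FC 1.76 ± 0.18, FDR = 1.56e-13.

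Markers of other cells were read in the same libraries. The spermatid genes Prm1, Prm2, Tnp1, Tnp2, Acrv1 and Odf1 summed to at most 1.55 CPM in any library, at least 3 of the 6 were at 0 in every group, and Prm2 was at 0 throughout. Of the genes that mark two-cell-like cells in ESC cultures, 4 of 5 tested rose in C1M and 4 in C1H, and their sum was 0.42 to 3.36 CPM in C1, with Zfp352 and Zscan4f at 0, 9.93 to 11.1 in C1M and 24.2 to 32 in C1H. Since only uniquely aligned reads were counted, genes of this list with near copies can be undercounted here and below. For 7 primordial germ cell markers the sum was 327 to 415 CPM in C1, 425 to 454 in C1M, with 2 of 7 higher and 1 lower, and 456 to 488 in C1H, with 3 of 7 higher and 0 lower. Naive pluripotency markers summed to 5266 to 5436 CPM in C1, 3816 to 4018 in C1M, with 5 of 6 lower and 1 higher, and 3939 to 4196 in C1H, with 4 of 6 lower and 0 higher. The 6 primitive endoderm markers summed to 11.9 to 19.25 CPM in C1, where Sox7 was at 0, 22.3 to 39.4 in C1M, with 2 of 6 higher, and 26.5 to 31.5 in C1H, with 0 called. Of 3 general pluripotency markers 1 was lower in each group. The part of these cells in the rise of the germline genes was not tested.

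Differentiation without the fusion changed 20 of the 38 genes, close to the share of all genes tested (7528 of 15280), but more often upward. In C1T vs C1, 15 rose and 5 fell, against 24.4% and 24.9% of all genes tested, with a median of 0.81 over the 38, or 0.31 with genes at the floor at their bounds. Mael reached its highest level here, 25.4, 32.5, 31.9 and 19.6 CPM in C1T (log2 FC 3.22 ± 0.29, FDR = 7.83e-20), above every library of day 0. Sycp1 was at 33.1, 30.8, 23.8 and 21.5 CPM (log2 FC 2.63 ± 0.25, FDR = 1.04e-18), which overlapped C1M, and Ddx4 was at 17.3, 17.5, 12.9 and 24.2 (log2 FC 1.92 ± 0.28, FDR = 1.06e-09), which overlapped C1H. Tdrd12 (log2 FC 2.31 ± 0.35, FDR = 5.27e-09), Sycp2 (log2 FC 1.82 ± 0.36, FDR = 5.81e-06) and Smc1b (log2 FC 0.76 ± 0.17, FDR = 5.32e-05) rose as well, and Tdrd1 was at least 3.38-fold higher (FDR = 4.77e-06). Syce2, which was not called in C1M or C1H at day 0, went to 109.9, 104, 113 and 91.4 CPM (log2 FC 1.09 ± 0.11, FDR = 6.36e-17).

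Other genes stayed near their C1 level or dropped over the same 4 days. Dazl was at 18.2, 25, 13.3 and 17 CPM in C1T (log2 FC 0.04 ± 0.19, FDR = 0.894) and Tex15 at 13, 11.7, 14.8 and 12.4 (log2 FC -0.07 ± 0.22, FDR = 0.82), both overlapping C1. Stra8 fell to 10.1, 12.1, 7.63 and 7.83 CPM (log2 FC -1.26 ± 0.22, FDR = 3.23e-07), Syce1 to 40.3, 32.1, 31.5 and 48.3 (log2 FC -0.81 ± 0.13, FDR = 2.62e-08) and Prdm9 to 3.84, 2.5, 0.953 and 1.31 (log2 FC -1.48 ± 0.45, FDR = 0.00359). The piRNA pathway had 6 of 12 tested genes higher and 0 lower, and the regulators 1 of 8 higher and 2 lower. In the same comparison 6 of 6 naive pluripotency markers were lower, 3 of 5 two-cell-like markers higher (sums of 0.42 to 3.36 CPM in C1 and 7.83 to 12.5 in C1T), primordial germ cell markers higher for 1 of 7 and lower for 3, and 1 marker in each direction was called among the general pluripotency and the primitive endoderm genes. Their part in the changes was not tested.

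At day 4 the genes were no longer mostly higher in the cells of the sorted fractions than in their control. In C1HDT vs C1T, with the inducers kept, 3 genes were higher and 6 lower, against 17.4% and 16.1% of all genes tested, with a median of -0.21. C1MDT vs C1T gave 4 higher and 7 lower, against 16.9% and 16.5%. After withdrawal, C1HV vs C1T gave 3 higher and 3 lower, against 13.7% and 14.3%, and C1MV vs C1T gave 5 higher and 3 lower, against 15.3% and 14.9%. Of the 27 genes that rose in C1H at day 0, 2 were higher in C1HDT than in C1T (Smc1b and Syce3), 6 were lower and 19 were not called. The 4 comparisons share the C1T libraries. The 6 primitive endoderm markers were higher in each of them, with sums of 9.79 to 22.4 CPM in C1T, 316 to 357 in C1HV and 518 to 622 in C1HDT, and Sox17 and Sox7 each at 0 reads in 3 of the 4 C1T libraries. Naive pluripotency markers summed to 352 to 445 CPM in C1T, and 6 of 6 were higher in C1MV and in C1HV, while 3 were lower in C1MDT and 2 in C1HDT and 0 were higher there. Of the 7 primordial germ cell markers 4 were higher in C1MV and 3 in C1HV. With the inducers kept 1 was higher in either fraction, and 1 was lower in C1HDT. Two-cell-like markers were higher for 2 of 5 in C1MV and in C1HV and for 0 with the inducers kept. Of the 3 general pluripotency markers 2 were lower in C1MV, 2 lower and 1 higher in C1HV, and 3 lower in C1MDT and in C1HDT. The part of these markers' cells in the values of the germline genes was not tested.

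Sycp1 and Stra8 were lower than in C1T in all 4 comparisons. Sycp1 was at 8.87, 11.2, 8.36 and 11.4 CPM in C1MV, 7.5, 7.00, 4.47 and 8.6 in C1MDT, 10.9, 10.8, 9.03 and 9.76 in C1HV and 6.12, 6.69, 9.64 and 5.79 in C1HDT. All 16 libraries were below those of C1T, with changes from log2 FC -2.03 ± 0.21, FDR = 2.7e-15 in C1MDT to log2 FC -1.45 ± 0.21, FDR = 5.85e-09 in C1HV. Stra8 was at 4.84, 6.37, 5.45 and 6.42 CPM in C1MV, 2.88, 2.21, 1.68 and 1.03 in C1MDT, 3.62, 1.14, 4.3 and 1.95 in C1HV and 4.42, 0, 1.26 and 1.02 in C1HDT. The groups with kept inducers were lowest (log2 FC -2.35 ± 0.34, FDR = 4.11e-09 and log2 FC -2.36 ± 0.35, FDR = 5.28e-09). The value of C1HDT rested on counts of 13, 0, 3 and 3, so that the group is at the floor without C1HDT replicate 1, and the change in C1MV was the least firm (log2 FC -0.74 ± 0.28, FDR = 0.0338, up to 0.188 without C1T replicate 2).

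With the inducers kept, Dazl and Syce1 were below C1T as well. Dazl had 9.23, 11.4, 9.21 and 12.4 CPM in C1MDT and 10.5, 8.6, 7.96 and 12.6 in C1HDT, under every C1T library (log2 FC -0.81 ± 0.20, FDR = 0.000614 and log2 FC -0.88 ± 0.21, FDR = 0.000228). After withdrawal it was at 15.3, 20.6, 13.8 and 18.6 CPM in C1MV and 7.75, 14.2, 16.3 and 16.9 in C1HV, which overlapped C1T. Syce1 had 40.3, 32.1, 31.5 and 48.3 CPM in C1T and 26.9, 24.4, 25.1 and 24.9 in C1HDT (log2 FC -0.56 ± 0.15, FDR = 0.00102), and in C1MDT it had log2 FC -0.48 ± 0.14, FDR = 0.00486 (up to 0.0784 without C1T replicate 4). Mael was lower in C1MV (log2 FC -1.07 ± 0.21, FDR = 1.4e-05), where it had 11.3, 12.7, 11.6 and 19.3 CPM, and in C1MDT (log2 FC -0.76 ± 0.20, FDR = 0.00129). It was also lower in C1HV, with 21.2, 22.7, 17.6 and 11.1 CPM (log2 FC -0.60 ± 0.21, FDR = 0.0201, up to 0.147 without C1HV replicate 4), while in C1HDT, with 21.8, 20.5, 20.1 and 20.1 CPM, it was not called (log2 FC -0.43 ± 0.19, FDR = 0.080).

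A few genes were higher than in C1T. Smc1b had 42.2, 30, 35.8 and 24.8 CPM in C1T, 59.3, 62.9, 52.3 and 51.4 in C1MV, 43.8, 49, 46.9 and 63.7 in C1MDT, 59.9, 85.2, 62.8 and 76.1 in C1HV and 49, 67.4, 43.6 and 53.5 in C1HDT. It was above C1T in all 4 comparisons, from log2 FC 0.61 ± 0.14, FDR = 0.000161 in C1MDT to log2 FC 1.07 ± 0.14, FDR = 6.28e-11 in C1HV. Sycp3 was at 32.6, 26.7, 31.5 and 36.6 CPM in C1T, 46, 55.4, 50.9 and 60.6 in C1MV and 64.1, 64.8, 56.8 and 76.1 in C1HV, and at 30.6, 26.9, 34.3 and 29.6 in C1MDT and 30.3, 20.5, 35.2 and 26.6 in C1HDT. The groups without inducers were above C1T (log2 FC 0.74 ± 0.14, FDR = 7.08e-06 and log2 FC 1.04 ± 0.14, FDR = 3.59e-10), and the other 2 overlapped it. Tex15 stood at 21, 27, 26.9 and 26.4 CPM in C1MV (log2 FC 0.96 ± 0.20, FDR = 2.3e-05) and 21.9, 14.7, 27.9 and 27.9 in C1MDT (log2 FC 0.86 ± 0.19, FDR = 0.000144), under its C1M level. It was higher in C1HV too, with 24.3, 30.1, 15.9 and 21.5 CPM (log2 FC 0.80 ± 0.21, FDR = 0.000998), and was not called in C1HDT (log2 FC 0.44 ± 0.20, FDR = 0.0877). Syce3 rose to 11.2, 13.9, 10.5 and 7.15 CPM in C1HDT (log2 FC 0.95 ± 0.33, FDR = 0.0186, up to 0.0822 without C1T replicate 3) and Syce2 to 129.6, 124, 147 and 148 (log2 FC 0.39 ± 0.09, FDR = 0.000449), and both genes had their highest group means of the series in C1MDT and C1HDT.

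The remaining genes that had risen at day 0 gave few calls against C1T at day 4. Brdt was at 11 to 17.9 CPM in C1T and at 5.03 to 16.3 over the other 4 groups, against 12.2 to 20.8 in C1, and was called in none of the comparisons with C1T. Mov10l1 had 13.9, 17.1, 13.3 and 13.7 CPM in C1T and 3.46, 9.95, 9.77 and 11.7 in C1MDT, where it was lower (log2 FC -0.66 ± 0.22, FDR = 0.0134, up to 0.101 without C1MDT replicate 1), and 8.8 to 17.6 in the other groups. Piwil2 was at 3.01 to 10.8 CPM over the 20 libraries of day 4, and no comparison with C1T called it. Sycp2 had 8.64, 13.7, 7.63 and 12.4 CPM in C1T and 2.72, 7.17, 4.61 and 4.43 in C1HDT (log2 FC -1.20 ± 0.31, FDR = 0.00104), the only group in which it was called lower than in C1T. Ddx4 was at 8.72 to 19.3 CPM and Tdrd12 at 8.56 to 18.6 in the 4 groups from the sorted fractions, both overlapping C1T and not called. Tdrd1 had 1.47 to 7.23 CPM and Spz1 0 to 2.21 at day 4, and Tdrd9 was at the floor in C1T and at 0 to 4.28 in the others. Hormad1 was lower in C1MDT, with 1.73, 0, 3.35 and 1.72 CPM against 6.72, 5.83, 3.81 and 7.83 in C1T (log2 FC -1.69 ± 0.50, FDR = 0.00512, with log2 FC -2.37 without C1MDT replicate 3), and in C1HDT (log2 FC -1.18 ± 0.47, FDR = 0.0441, up to 0.158 without C1HDT replicate 4). Tdrd5 was higher in C1MV (log2 FC 1.43 ± 0.52, FDR = 0.0246, up to 0.225 without C1MV replicate 2, and with C1T at the floor without C1T replicate 3). Hormad2, Stag3, Stk31, Dmc1, Meiob and Tdrkh were not called in any of the comparisons with C1T.

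Keeping the inducers for the 4 days was set against withdrawing them in each fraction. C1HDT vs C1HV had 2 genes higher and 4 lower, against 9.10% and 6.88% of all genes tested, and the count of 6 became 3 without C1HV replicate 2. C1MDT vs C1MV had 2 higher and 5 lower, against 6.64% and 5.95%. Sycp3 (log2 FC -0.79 ± 0.14, FDR = 2.8e-06 and log2 FC -1.20 ± 0.14, FDR = 2.44e-12) and Syce1 (log2 FC -0.63 ± 0.14, FDR = 0.000277 and log2 FC -0.77 ± 0.14, FDR = 9.94e-06) were lower with the inducers in both fractions. Syce2 was higher in both (log2 FC 0.31 ± 0.09, FDR = 0.0129, up to 0.104 without C1MV replicate 3, and log2 FC 0.43 ± 0.10, FDR = 0.00028), as was Rec8, with 6.72, 3.98, 3.87 and 1.3 CPM in C1HV and 7.14, 10, 5.87 and 9.53 in C1HDT (log2 FC 0.85 ± 0.30, FDR = 0.0445 and log2 FC 0.98 ± 0.34, FDR = 0.033, up to 0.138 without C1MDT replicate 2 and 0.166 without C1HV replicate 4). Stra8 and Dazl were lower in C1MDT than in C1MV (log2 FC -1.61 ± 0.38, FDR = 0.000826 and log2 FC -0.67 ± 0.20, FDR = 0.0135), the latter not without C1MV replicate 2 (FDR 0.107). Markers moved in the same comparisons, with 6 of 6 naive pluripotency markers lower with the inducers in both fractions (sums of 285 to 356 CPM in C1MDT against 766 to 929.8 in C1MV, and of 269 to 372 in C1HDT against 669 to 803 in C1HV). Primordial germ cell markers were lower for 3 of 7 in the middle and 4 of 7 in the high fraction, and primitive endoderm markers higher for 2 of 6 and 3 of 6. Of 5 two-cell-like markers 1 was lower in the middle and 0 in the high fraction, and of 3 general pluripotency markers 1 was lower in each and 1 and 2 were higher. Their part in the changes of the germline genes was not tested.

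The 2 fractions were not told apart at day 4 for these genes. For C1HV vs C1MV and for C1HDT vs C1MDT edgeR called 0 of 38, against 0.00654% and 0% of all genes tested, and DESeq2 called 0 and 0. At an unadjusted p under 0.05 there were 5 genes in the former (Mael, Smc1b, Stra8, Sycp3 and Tex14) and 3 in the latter (Spz1, Tdrd12 and Tex15).

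The change with time was tested as a difference of differences in the same fit. For the high fraction with kept inducers, (C1HDT vs C1T) minus (C1H vs C1) was lower in 21 of 38 genes and higher in 1, Syce2, against 12.6% and 12.7% of all genes tested. The other 3 differences were lower in 19 and higher in 0 genes for C1MDT (against 12.6% and 11.8% of all genes), lower in 20 and higher in 1, Tex14, for C1MV (11.6% and 11.0%), and lower in 20 and higher in 0 for C1HV (11.2% and 10.7%). Their medians were -1.61 for C1HDT, -1.30 for C1MDT, -0.97 for C1MV and -1.02 for C1HV. For Dazl the difference was log2 FC -2.97 ± 0.26, FDR = 8.08e-20 in the high fraction with kept inducers, and for Sycp1 it was log2 FC -5.07 ± 0.32, FDR = 3.92e-31. Smc1b, which was above its control at both times, had log2 FC -1.01 ± 0.21, FDR = 4.64e-05, and Syce2 had log2 FC 0.59 ± 0.15, FDR = 0.00141. Two-cell-like markers were lower in this difference for 4 of 5 (C1HDT), 4 (C1HV), 2 (C1MDT) and 1 (C1MV), and primitive endoderm markers higher for 5 of 6 in each of the 4. For the 6 naive pluripotency markers it was higher for 6 after withdrawal in both fractions, and with the inducers kept 2 were higher and 2 lower in C1MDT and 1 higher and 2 lower in C1HDT. Sums of the primordial germ cell markers lay above C1 in both C1M and C1H. At day 4 they lay above C1T (77.7 to 97.3 CPM) in C1MV (139 to 184) and C1HV (138 to 146), and overlapped it with the inducers kept. The part of the cells of all these markers was not tested.

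**Figure D4:**
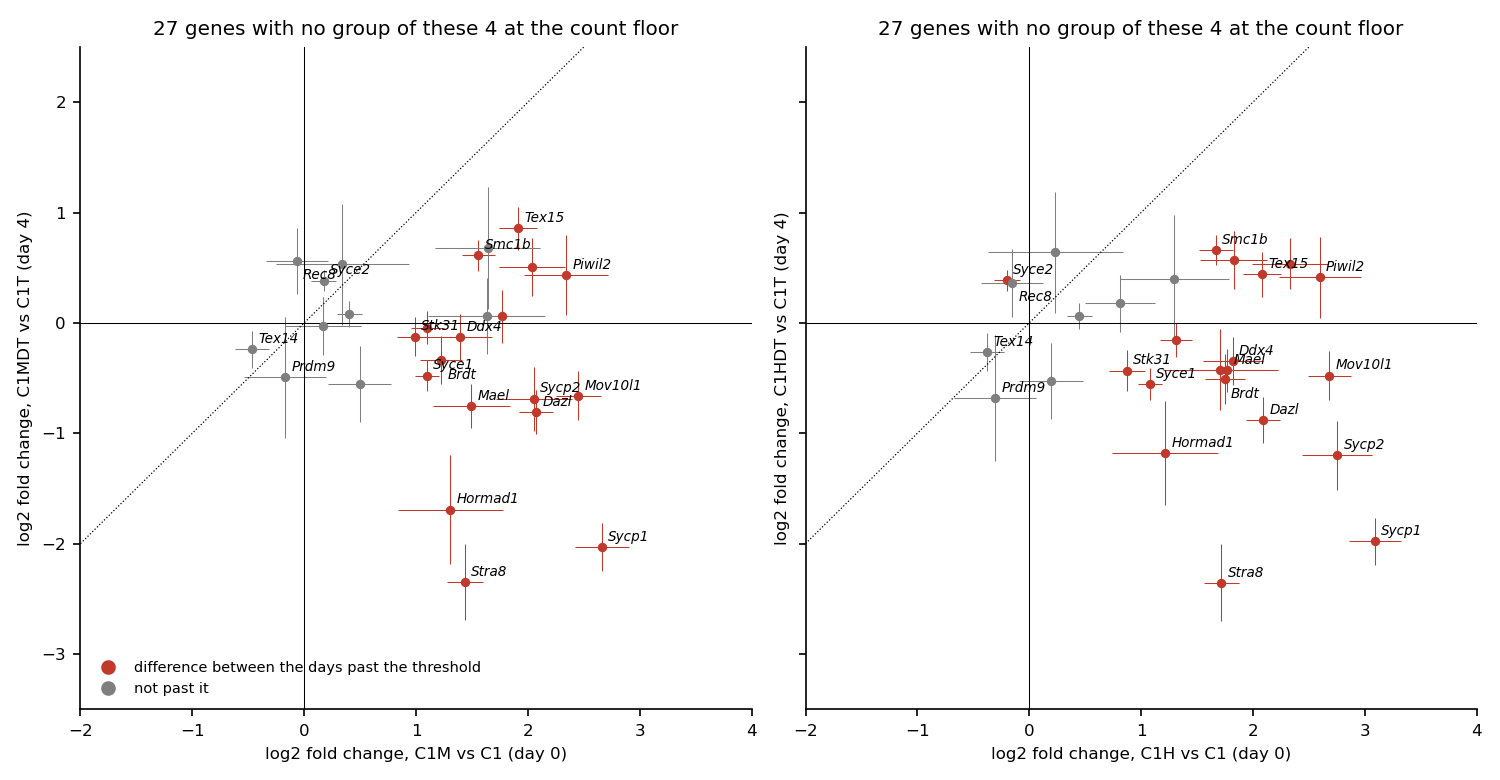
Log2 fold change at day 4 with kept inducers against the log2 fold change at day 0, for the middle fraction (left) and the high fraction (right), with bars of 1 SE; points are the 27 tested genes with no group of the 4 compared at the floor, red where the difference between the 2 changes passed the threshold, and the diagonal marks equal change. In each panel 23 of 27 points lie below the diagonal.

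Within a fraction the levels fell from day 0 to day 4. C1HDT vs C1H had 20 genes lower and 5 higher, against 29.4% and 26.3% of all genes tested, with a median of -1.09, or -0.81 with genes at the floor at their bounds. C1MDT vs C1M had 19 lower and 6 higher, against 27.9% and 24.5%. C1HV vs C1H had 16 and 4, against 25.1% and 22.0%, and C1MV vs C1M had 16 and 6, against 23.9% and 22.0%. Stra8 fell most, by 5.33 on the log2 scale in the high fraction with kept inducers (FDR = 9.36e-48), with C1HDT at the floor without its replicate 1, and Dazl changed by log2 FC -2.94 ± 0.16, FDR = 1.4e-37. Spz1 was at least 3.61-fold lower there (FDR = 7.41e-06), and Tdrd9 changed by log2 FC -3.25 ± 0.52, FDR = 2.24e-08, with C1HDT at the floor without its replicate 2. Mael, Syce2 and Syce3 were higher at day 4 than at day 0 in all 4 of these comparisons, although for Syce3 in C1HV vs C1H the call rested on C1H replicate 4, which had 0 reads (FDR 0.209 without it). In C1MV vs C1M the calls of Syce3 and Mael were also lost with 1 library left out (FDR up to 0.167 without C1MV replicate 2 and 0.129 without C1M replicate 2). Among the markers, 6 of 6 naive pluripotency genes were lower and 6 of 6 primitive endoderm genes higher in all 4 comparisons, and of 5 two-cell-like genes 3 were lower in both of the high fraction, 3 higher in C1MV vs C1M and 0 called in C1MDT vs C1M. Primordial germ cell markers summed to 456 to 488 CPM in C1H, 138 to 146 in C1HV and 79.6 to 94.1 in C1HDT. They summed to 425 to 454 in C1M, 139 to 184 in C1MV and 87.1 to 89.6 in C1MDT. Dnd1 of this list went the other way, from 6 to 14 counts in C1H to 20 to 39 in C1HDT. Their part in the changes was not tested.

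Some genes gave no call at all. Asz1, Tdrd7, Mei4 and Msh5 were tested and passed the threshold in none of the 20 contrasts, while 34 of the 38 passed it in at least 1. The 4 genes that were not tested had a highest count of 2 (Tdrd6), 4 (Msh4), 3 (Rnf212) and 2 (Spo11) in any library, so that a change in Spo11, the enzyme that makes the meiotic breaks, or in the crossover factors Msh4 and Rnf212 was not detectable at this depth. Piwil1 (MIWI), of later germ cells, was at 6.23 to 12.4 CPM at day 0 and 2.14 to 8.1 at day 4, and was lower at day 4 in the 4 comparisons within a fraction, for C1HV vs C1H not without C1HV replicate 4 (FDR 0.0992). Piwil4 (MIWI2), of fetal germ cells, was at the floor in C1 and at least 1.09-fold higher in C1T (FDR = 0.0226, up to 0.0809 without C1 replicate 1).

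Further genes of the same pathways, not among the 42, were read from lists. Of 26 tested among 32 other meiosis genes, 6 rose in C1M vs C1 (against 14.3% of all genes tested), and 11 rose and 3 fell in C1H vs C1 (against 13.8% and 12.1%). Tex19.2 (log2 FC 3.24 ± 0.33, FDR = 2.15e-15) and Tex11 (log2 FC 1.95 ± 0.22, FDR = 8.45e-14) rose most and Dnmt3l (log2 FC -0.83 ± 0.26, FDR = 0.0147) and Psmc3ip (log2 FC -0.65 ± 0.21, FDR = 0.014) fell most in C1H among genes not at the floor. In C1HDT vs C1T, where 17.4% of all genes tested were higher and 16.1% lower, 3 were higher, among them Rec114 (log2 FC 0.82 ± 0.26, FDR = 0.00867) and Tex11 (log2 FC 0.72 ± 0.25, FDR = 0.0145), and 3 lower, among them Majin (log2 FC -0.97 ± 0.35, FDR = 0.0219) and Ankrd31 (log2 FC -0.93 ± 0.35, FDR = 0.0263). Of 14 tested among 16 other piRNA genes, 4 rose and 3 fell in C1M (against 14.3% and 12.0% of all genes), 5 rose and 2 fell in C1H (against 13.8% and 12.1%), and 1 was higher and 5 lower in C1HDT vs C1T (against 17.4% and 16.1%). Nxf2, an mRNA export factor of germ cells, was at least 2.62-fold higher in C1H (FDR = 5.39e-05), while Gpat2 (log2 FC -0.50 ± 0.15, FDR = 0.00748) and Morc1 (log2 FC -0.48 ± 0.16, FDR = 0.018) were lower. At day 4 Gpat2 was higher in C1HDT (log2 FC 0.44 ± 0.17, FDR = 0.033) and Gtsf1l lower (log2 FC -1.14 ± 0.31, FDR = 0.00168), and Henmt1, called in both comparisons, had a group at the floor and no fold can be given.

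A list of 22 regulators of chromatin and DNA methylation was read as well. It holds Polycomb, H3K9 and DNA methylation factors and also Tet1 and Tet2, which oxidise methylated cytosine and so act against methylation. In C1M and in C1H, 12 of the 22 fell and 0 rose, against 12.0% and 12.1% of all genes tested that fell, and the median of the list was -0.35 and -0.33. Tet1 and Tet2 were among the 12 in both comparisons. Uhrf1, which brings the maintenance methyltransferase to replicated DNA (log2 FC -1.09 ± 0.11, FDR = 1.91e-10), and Tet2 (log2 FC -0.77 ± 0.09, FDR = 5.81e-12) fell most in C1H. At day 4, in C1HDT vs C1T, 15 were lower and 1 higher, against 16.1% and 17.4% of all genes, with Dnmt3a, a de novo methyltransferase, at log2 FC -1.59 ± 0.08, FDR = 4.29e-43, Tet2 at log2 FC -1.44 ± 0.16, FDR = 8.87e-13 and Ehmt2, an H3K9 methyltransferase, at log2 FC 0.70 ± 0.10, FDR = 2.57e-09. These are levels of RNA, and their part in the levels of the germline genes was not tested.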

How the data were processed

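RNA of 32 cultures (8 groups of 4) was sequenced by QuantSeq. The values the authors deposited are whole-number counts of uniquely aligned reads per Ensembl gene, which they made by trimming with bbduk, alignment to mm10 with STAR and htseq-count; its strand setting is not given in the sources used here. Summary rows without a gene held 58.1% to 63.5% of the reads of a library, were left out, and are mostly reads without a unique place, so genes with near copies can be undercounted.

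Counts were scaled by TMM and tested with edgeR 4.0.16 (R 4.3.3; robust quasi-likelihood, 1 fit of 8 groups, no block) over 15280 genes (CPM of 1 or more in 4 or more libraries), with Benjamini-Hochberg adjustment over all of them. The 16 comparisons of 2 groups and 4 differences of differences are contrasts of this fit. Steps were tested on simulated data. Symbols and coordinates are from GENCODE on GRCm38. The rule for full values took called genes with the largest range of group means, at most 16, and Spz1, Dazl, Ddx4, Mael and Sycp3, 17 in all; at day 4 several of these are given by range, and Smc1b was added after its values were seen; companion genes are the 2 most raised and 2 most lowered of each list. The list of members uses no measured value, but it, the other lists and the rules were chosen with earlier results of these data known. Alternatives were RLE factors, library size only, DESeq2 1.42.0, no filter, mean CPM of at least 1 over all libraries, the replicate number as a block, a fit of only the 2 groups or 4 groups in question, and leaving out 1 library at a time. The study's filter on multi-mapped reads could not be repeated. For the medium the study's methods (2i/LIF) were followed, not the labels (serum and LIF).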

Additional observations from a re-analysis of the deposited data

Results flagged for a closer look

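Single libraries stood apart from the other 3 of their group in 11 of 135 groups examined (17 genes, 8 groups, groups with no reads left out), where chance alone would give about 6.75, since the test passes about 1 in 20. The ratio is the gap to the nearest library over the whole range of the group, held against Dixon's 95% critical value for 4 libraries. It was taken on log2 CPM with a prior count of 2, not on the CPM printed beside it. In the piRNA pathway these were Tdrd9 in C1HV (highest in replicate 3, 3.01 CPM against 0.517 to 0.651, ratio 0.91), Mov10l1 in C1H (highest in replicate 4, 61.8 CPM against 48.7 to 50.4, ratio 0.856), Mov10l1 in C1T (highest in replicate 2, 17.1 CPM against 13.3 to 13.9, ratio 0.832), Mov10l1 in C1MDT (lowest in replicate 1, 3.46 CPM against 9.77 to 11.7, ratio 0.844), Tdrd1 in C1MDT (lowest in replicate 2, 1.47 CPM against 5.86 to 7.23, ratio 0.852) and Tdrd1 in C1HDT (lowest in replicate 3, 3.77 CPM against 5.44 to 5.73, ratio 0.873). In the other genes they were Syce3 in C1H (lowest in replicate 4, 0 CPM against 5.13 to 5.93, ratio 0.94), Syce3 in C1HV (lowest in replicate 2, 3.41 CPM against 9.11 to 9.89, ratio 0.918), Spz1 in C1MDT (highest in replicate 2, 2.21 CPM against 1.03 to 1.15, ratio 0.872), Brdt in C1H (lowest in replicate 3, 42.1 CPM against 51.3 to 53.2, ratio 0.843) and Tex15 in C1MV (lowest in replicate 1, 21 CPM against 26.4 to 27, ratio 0.916). Without C1H replicate 4, Syce3 was still higher in C1H than in C1, and Brdt and Mov10l1 in C1H kept their calls against C1 with any 1 library left out.

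The change at day 4 differed from that at day 0 for 15 or fewer genes in each comparison among the 17 selected for their range of group means or by name, by the difference of differences of the edgeR fit (log2 scale, day 4 minus day 0). In C1MV it was Spz1 -4.44, Sycp1 -4.15, Tdrd1 -2.74, Mov10l1 -2.62, Mael -2.57, Sycp2 -2.52, Piwil2 -2.21, Dazl -2.21, Stra8 -2.18, Ddx4 -1.87, Tdrd12 -1.58, Brdt -1.51, Tex15 -0.95 and Syce1 -0.95. In C1MDT it was Sycp1 -4.69, Spz1 -4.35, Stra8 -3.79, Mov10l1 -3.11, Dazl -2.88, Sycp2 -2.74, Mael -2.25, Piwil2 -1.91, Tdrd12 -1.71, Syce1 -1.58, Brdt -1.56, Ddx4 -1.53, Sycp3 -1.15 and Tex15 -1.06. In C1HV it was Spz1 -5.33, Sycp1 -4.54, Stra8 -3.42, Tdrd1 -3.41, Sycp2 -3.10, Mov10l1 -2.61, Dazl -2.53, Mael -2.37, Piwil2 -2.20, Ddx4 -2.05, Brdt -2.01, Tdrd12 -1.90, Tex15 -1.28 and Syce1 -0.87. In C1HDT it was Spz1 -6.67, Sycp1 -5.07, Stra8 -4.07, Sycp2 -3.96, Mov10l1 -3.16, Tdrd1 -3.00, Dazl -2.97, Brdt -2.26, Mael -2.20, Piwil2 -2.18, Ddx4 -2.16, Tdrd12 -1.80, Tex15 -1.64, Syce1 -1.64 and Sycp3 -1.47. The 4 comparisons share the C1 and C1T libraries. Those of Spz1 and Tdrd1 involve C1 libraries at the floor, depend on the prior count and are no bound. The call of Spz1 was lost in all 4 without C1T replicate 1 (FDR 0.114 in C1HDT, 0.225 in C1HV, 0.309 in C1MDT and 0.311 in C1MV), and in C1MV and C1MDT without other single libraries too, and that of Tdrd1 in C1MV without C1M replicate 4 (FDR 0.127). The same libraries moved the values, those of Spz1 to between -5.36 (C1HDT) and -3.03 (C1MDT) and that of Tdrd1 in C1MV to -2.10, and the value of Stra8 in C1HDT was -5.18 without C1HDT replicate 1.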

How the results depend on the processing

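The count of genes called kept within 1.5 times of its value in all 20 contrasts under RLE factors, library size only, DESeq2, no filter, the filter on mean CPM, the replicate block and a fit of only the groups compared, with 1 exception: C1H vs C1M gave 3 genes instead of 1 in the fit of only the groups compared. DESeq2 called 25 genes in C1M vs C1 and 23 in C1H vs C1. With library size only, the share of all called genes that were higher went from 54.3% to 64.58% in C1M vs C1 and from 53.3% to 66.5% in C1H vs C1, from 48.9% to 59.4% in C1HV vs C1T and from 56.9% to 45.2% in C1HDT vs C1HV, while the germline genes stayed at 26 and 1 in C1M and 27 and 0 in C1H. Of 296 calls of single genes, none reversed in any of these settings, and those lost were 14 of 290 under DESeq2, 8 with no filter, 5 with only the groups compared, 4 with library size only, 3 with the block, 2 with RLE and 2 of 288 with the filter on mean CPM.

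Replicate numbers recur in all groups, but same-numbered libraries did not deviate together (mean r of -0.00163 over 112 pairs, from -0.067 to 0.049), so the pairing was not used. With the replicate number as a block C1M vs C1 had 27 genes, C1H vs C1 had 26, C1HDT vs C1T had 10 and the difference for C1HDT had 22.

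With 1 library left out, the counts ran from 20 to 27 in C1M vs C1 (lowest without C1 replicate 1), 21 to 28 in C1H vs C1, 0 to 2 in C1H vs C1M, 6 to 9 in C1MV vs C1T, 9 to 13 in C1MDT vs C1T, 5 to 8 in C1HV vs C1T, 8 to 12 in C1HDT vs C1T, 5 to 7 in C1MDT vs C1MV, 3 to 8 in C1HDT vs C1HV, 18 to 22 in C1T vs C1, 18 to 22 in C1MV vs C1M, 22 to 26 in C1MDT vs C1M, 18 to 20 in C1HV vs C1H and 22 to 25 in C1HDT vs C1H. For the differences of differences they were 16 to 21 (C1MV), 18 to 20 (C1MDT), 16 to 20 (C1HV) and 21 to 23 (C1HDT), and for C1HV vs C1MV and C1HDT vs C1MDT they were 0 throughout. Of 9472 calls of single genes 367 were lost and none reversed. Where a setting ended a call, the cause was not tested. Depth limits what can be said of genes near 3 counts, 0.822 to 2.19 CPM by library.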
